A study of Homo sapiens with 4 samples.

Results

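The 8 genes described here, SESN1, SESN2, FDXR, GLS2, TIGAR, TP53I3, TP53INP1 and DRAM1, are metabolic, redox and autophagy targets of p53, chosen by name out of 20163 protein-coding genes annotated on GRCh37. A p53 peak was assigned to a gene when its summit lay in the gene body or within 25 kb of it. Binding was measured by ChIP-seq with an anti-p53 antibody in formaldehyde-fixed H1299 cells, a human lung cancer line that lacks endogenous p53, in stable lines that express the Tet Repressor. The 4 groups were untreated cells with WT p53, cells with WT p53 after 24 h of tetracycline (Tet), untreated cells with K120R p53, and cells with K120R p53 after 24 h of Tet. K120R p53 carries arginine in place of a lysine that contacts DNA and can be acetylated. The Tet dose was 1 µg/µl by the sample labels and 1 µg/ml by the study's methods. Each group had 1 library, so no test between groups was possible, and all intervals below are exact Clopper-Pearson 95% intervals that cover counting error only. In the order just given, the libraries held 33059650, 33531162, 34151544 and 34857204 tags. The authors called peaks separately for every library, with its own input as control, and their lists held 488, 4326, 12 and 2023 peaks in the same order. A gene without a peak is thus a gene at which none was called at this depth.

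When p53 is activated, it binds response elements (REs) as a tetramer and induces genes that stop division or kill the cell, and also genes that reset metabolism. Sestrins restrain growth signalling through mTORC1 and lower oxidative stress, TIGAR lowers glycolytic flux and favours the pentose phosphate pathway, and GLS2 turns glutamine into glutamate in mitochondria. FDXR passes electrons to ferredoxins for iron-sulfur cluster and steroid synthesis, TP53I3 (PIG3) is a quinone oxidoreductase, and DRAM1 and TP53INP1 take part in autophagy.

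An RE consists of 2 half-sites of 10 bp, each made of 3 purines, C, 2 A/T, G and 3 pyrimidines, and the half-sites may be separated by a spacer. The sequences below are the elements under or near the peaks to which the results refer, with the positions next to the cores (3, 8, 13 and 18 of an element, not counting a spacer) in capitals. A G/C bp at these positions is counted as G/C below. Coordinates are 1-based on GRCh37. The first 3 are REs that the study listed for these genes, printed as listed, which is the reverse complement of the plus strand. The other 6 were found in the reference and are printed on the plus strand, and the 22-bp sequence at TIGAR includes a spacer of 2 bp. FDXR is represented by the best match within 100 bp of its summit, TP53I3 by a match inside a repeat, and GLS2 by an element that no peak covered.
SESN1, chr6:109330221-109330240: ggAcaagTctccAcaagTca
SESN2, chr1:28586797-28586816: ggAtttgCctggActtgAag
TIGAR, chr12:4430844-4430863: agCcatgGacgaGcaatTct
TIGAR with spacer, chr12:4430781-4430802: agAcatgTccacagActtgTct
SESN2 upstream, chr1:28568543-28568562: caGcatgTctatGcatgCct
DRAM1 upstream, chr12:102249279-102249298: agGcatgTttagGcaagCtc
FDXR, chr17:72869121-72869140: ggGcaagCccgcTcctgCcc
TP53I3, chr2:24307248-24307267: ggGcaggAcaggAcaggGca
GLS2, chr12:56881897-56881916: gcGcatgCcccaGcaagCct

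After Tet treatment WT p53 had 11 peaks at 7 of the 8 genes, and GLS2 was the gene without one. Of all protein-coding genes, 19.1% had a summit of this list in the same window. K120R p53 had 4 peaks at 3 genes after Tet treatment (SESN1, TIGAR and TP53I3), against a background of 9.46%. In untreated cells WT p53 had 3 peaks at 3 genes (SESN1, TIGAR and TP53INP1; background 2.59%) and K120R p53 had 0 (background 0.0347%). Genes with longer windows have more chances of a peak, and the windows of these genes had a median of 73.2 kb against 77.2 kb for all protein-coding genes. In the quartile of window length that holds SESN2, FDXR, GLS2 and TP53INP1, 3 of these 4 had a WT peak after Tet treatment, compared with 14.6% of all genes in that quartile. TP53I3, in the quartile of the shortest windows (11.2% of all genes), TIGAR, in the next after the 4 (18.7%), and SESN1 and DRAM1, in that of the longest (31.9%), also had one. Because the members were picked as known p53 targets, these shares describe the choice of genes as well as the libraries.

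**Figure D1:**
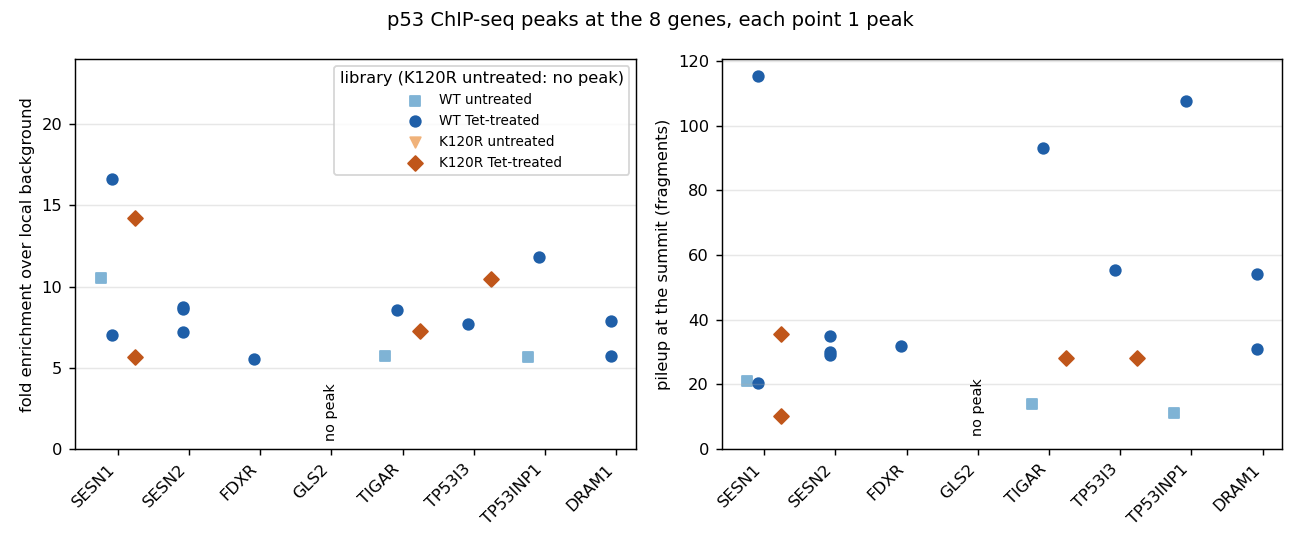
Fold enrichment over local background (left axis of the left panel) and pileup in fragments (right panel) of every peak assigned to the 8 genes, with 1 point per peak and colours and markers for the libraries. The WT Tet-treated peak of SESN1 is the highest point in both panels (fold enrichment 16.6, pileup 115), GLS2 has no point, and lists differ in fragment length, so heights are to be compared within a colour.

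The sestrins differed from each other. At SESN1, the main peak lay 81 bp upstream of a coding transcript start inside the gene (chromosome 6, 109329939 to 109330677), and it had a fold enrichment of 16.6 with WT p53 after Tet treatment, which exceeded 84.9% of that list. At the same place, fold enrichment was 10.5 with WT p53 in untreated cells and 14.2 with K120R p53 after Tet treatment, and no peak was called with K120R p53 in untreated cells. SESN1 therefore had a peak at this site in 3 of the 4 libraries, and in the K120R list it exceeded 93.8% of peaks. The summits of the Tet-treated and untreated WT libraries were 24 bp apart, while the K120R summit lay 132 bp from that of Tet-treated WT p53. The centre of the listed SESN1 RE, which has 3 mismatches, no core mismatch and 0 G/C, was 41.5 bp from the WT summit and 173.5 bp from the K120R summit.

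SESN1 had a pair of further peaks, each in 1 library. A WT peak of Tet-treated cells in an intron, 5798 bp upstream of the same coding transcript start, had a fold enrichment of 7.01. A K120R peak of Tet-treated cells lay in another intron, 44.6 kb inside the gene from its annotated 5′ end (chromosome 6, 109371371 to 109371482), with a fold enrichment of 5.64 and a -log10 q of 3.89. It was the weakest of the 4 K120R peaks and the sole one with no WT peak. K120R peaks without a WT peak had longer runs of alternating purines and pyrimidines within 100 bp of the summit (median longest run 14 bp, against 8 bp for shared K120R peaks), but the longest run at this SESN1 peak was 6 bp.

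At SESN2 all 3 peaks were found with WT p53 after Tet treatment, and none was called in the other 3 libraries. One summit lay in an intron, 795 bp from the gene start (chromosome 1, 28586736 to 28586978, fold enrichment 7.17), 17.5 bp from the centre of the listed SESN2 RE, which has 4 mismatches and 1 G/C. The other summits lay 17.5 kb and 20.2 kb upstream of SESN2, in the body of ATP5IF1, with fold enrichments of 8.74 and 8.59. The summit 17.5 kb upstream had an element with 2 mismatches, no core mismatch and 3 G/C, centred 56.5 bp away, and the summit 20.2 kb upstream had one with 3 mismatches. This order depended on the search: within 50 bp of the summit the best elements had 6 and 3 mismatches, and with a spacer they had 1 and 3. All 3 values were near the middle of the list, exceeding between 45.8% and 58.5% of its peaks. At least 3 WT summits in the window were found at 0.67% of all protein-coding genes and at least 2 at 3.29%, whereas SESN2 had 3 and SESN1 and DRAM1 had 2 each. These backgrounds were not matched for window length. The windows of SESN1 and DRAM1 were longer than those of 83.8 and 87.3% of genes, and that of SESN2 was longer than 45.5%. The numbers of summits also depended on the window. At 10 kb, 8 of the 11 WT peaks stayed assigned, without both upstream SESN2 peaks and a DRAM1 peak 22.1 kb upstream. The nearest K120R peak of Tet-treated cells was 70.0 kb from SESN2.

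TIGAR and GLS2 act in glucose and glutamine metabolism. The TIGAR peak (chromosome 12, 4430410 to 4431011) was found in the same 3 libraries as that of SESN1. Fold enrichment was 8.54 with WT p53 after Tet treatment, 5.75 with WT p53 in untreated cells and 7.26 with K120R p53 after Tet treatment, and there was no peak with K120R p53 in untreated cells. These values exceeded 56.8, 28.9 and 58.5% of the respective lists. By pileup, the Tet-treated peaks stood higher, at 93.0 fragments for WT p53 (more than 89.3% of the list) and 28.0 for K120R p53 (more than 87.8%). The summits lay 260 to 411 bp downstream of a coding transcript start, in an intron of the longest gene model, whose 5′ end is 13.8 kb upstream of the Tet-treated WT summit. The body of another annotated gene also spans the site.

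The listed TIGAR RE has 4 mismatches, and its centre was 119.5 bp from the WT summit. Allowing a spacer of 0 to 13 bp, both TIGAR peaks of Tet-treated cells had the same best element. It had 0 mismatches with a spacer of 2 bp and 0 G/C. Its centre was 57.5 bp from the WT summit and 1.5 bp from the K120R summit. At the TIGAR peak of untreated WT cells, the best element had 3 mismatches, a spacer of 4 bp and 3 G/C. With the same spacers, 7.88% of all WT peaks of Tet-treated cells and 0.0347% of equally long windows 3 kb to either side of their summits had an element with 0 mismatches. In 94 WT peaks the best element had 0 mismatches and a spacer of at least 1 bp, and 29.8% of these (20.8 to 40.1%) had a K120R peak. Both classes that TIGAR falls in are small: of the 9 of these peaks with 0 G/C, 6 had a K120R peak (29.9 to 92.5%), and of the 4 with a spacer of 2 bp, 1 had one, which was TIGAR. Without a spacer, 29.6% of 247 peaks whose best element had 0 mismatches had one. These classes were drawn up after the TIGAR and DRAM1 elements had been seen.

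GLS2 had no peak in any of the 4 libraries. The nearest summits lay 608 kb away in Tet-treated cells with WT p53, 543 kb away in Tet-treated cells with K120R p53 and 7.87 Mb away in untreated cells with WT p53, and its chromosome had none in untreated cells with K120R p53. The window of GLS2 held 3 elements with at most 2 mismatches and no spacer. The element printed for GLS2 above lies 292 bp downstream of the gene start, in the non-coding part of an exon, and it has 2 mismatches, no core mismatch and 4 G/C. Genome-wide, 12492 elements without a spacer had 2 mismatches and none in the cores. Of these, 9.67% lay in a WT peak of Tet-treated cells.

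FDXR and TP53I3 are the oxidoreductases of the set. FDXR had a peak in 1 library, WT p53 after Tet treatment (chromosome 17, 72868930 to 72869211), with a fold enrichment of 5.56 and a pileup of 32.0 fragments. This was the lowest fold enrichment of the 11 WT peaks and exceeded 27.2% of the list. Its summit lay 5 bp from a coding transcript start, in the non-coding part of an exon. The best element had 3 mismatches, of which 1 was in the cores, and 3 G/C.

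TP53I3 had a peak with WT and with K120R p53 after Tet treatment and none in the untreated libraries. The WT peak (chromosome 2, 24307134 to 24307418) had a fold enrichment of 7.71, near the middle of its list (50.7% of peaks were lower), whereas the K120R peak had 10.5 and exceeded 84.1% of the K120R list. By pileup they differed less in rank, at 55.2 fragments for WT p53 (more than 76.2% of the list) and 28.0 for K120R p53 (more than 87.8%). The summits were 47 bp apart and lay 17 to 64 bp upstream of a coding transcript start, in the non-coding part of an exon. No good match to the consensus was present there: the best element under the WT summit had 6 mismatches, as did that of 2.06% of all WT peaks. The WT summit instead lay 10 bp from the centre of a run of 15 tandem repeats of 5 bp (24307213 to 24307287), read on the gene's strand, of which 9 were TGCCC and 6 TGTCC. Runs of at least 4 such repeats, searched on both strands within 100 bp of the summit, were present in 0.254% of WT peaks and in 0.0347% of windows 3 kb from the summits. The run at TP53I3 was the longest of all WT and K120R peaks of Tet-treated cells.

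Of the autophagy genes, DRAM1 had a pair of WT peaks after Tet treatment and none in the other libraries. The stronger one (chromosome 12, 102249099 to 102249499, fold enrichment 7.89, pileup 54.3) lay 22.1 kb upstream of the gene and held an element with 0 mismatches and 3 G/C, whose centre was 21.5 bp from the summit. The other lay 97 bp upstream of the gene start (102271139 to 102271491), with a fold enrichment of 5.72 and a best element with 4 mismatches. Elements with 0 mismatches and no spacer number 550 in the genome. Among them, 46.0% lay in a WT peak and 13.3% in a K120R peak of Tet-treated cells. Of the 92 WT peaks whose best element had 0 mismatches, no spacer and 3 G/C, as upstream of DRAM1, 9.78% (4.57 to 17.8%) had a K120R peak.

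TP53INP1, whose product promotes autophagosome formation, had a peak 223 bp upstream of the gene start with WT p53 after Tet treatment. Its fold enrichment was 11.8, next after SESN1 among the 8 genes, and its pileup of 108 fragments exceeded 92.0% of the list. In untreated cells WT p53 had a weak peak there, with a fold enrichment of 5.66, a pileup of 11 fragments and a -log10 q of 3.96. No peak was called with K120R p53 in either library, and the nearest one in Tet-treated cells was 891 kb away. Among the peaks of these genes it was thus the strongest without a K120R peak. Its best element had 4 mismatches and 2 G/C, or 3 mismatches and 4 G/C when a spacer of 4 bp was allowed.

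The peaks clustered at transcript starts. Each of the 7 genes with WT peaks in Tet-treated cells had 1 summit within 1 kb of a coding transcript start, which gave 7 of 11 peaks (63.6%, 30.8 to 89.1%). Over the whole list this share was 5.92%, and among the 3029 peaks in the window of any protein-coding gene it was 8.45%. For K120R p53, 3 of 4 peaks at these genes lay so close, against 7.86% of its list. The interval treats the 11 WT peaks as independent, although SESN2 alone had 3 of them. As the 8 genes were picked as known p53 targets, these shares too describe the choice of genes as well as the libraries. All 3 WT peaks with a K120R peak and all 3 with a peak in untreated cells were among those near a start, and the 4 distal peaks, at SESN1, SESN2 and DRAM1, had neither. Over the whole list, 34.4% of WT peaks near a start and 24.7% of the others had a K120R peak, and 16.8 and 8.80% had an untreated WT peak, so 0 of 4 distal peaks is not far from what these shares give. Base composition followed the position, and within 100 bp of the summit the distal peaks had 42.3 to 49.8% G+C and those near a start had 53.7 to 73.1%, compared with a median of 46.8% over the list.

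**Figure D2:**
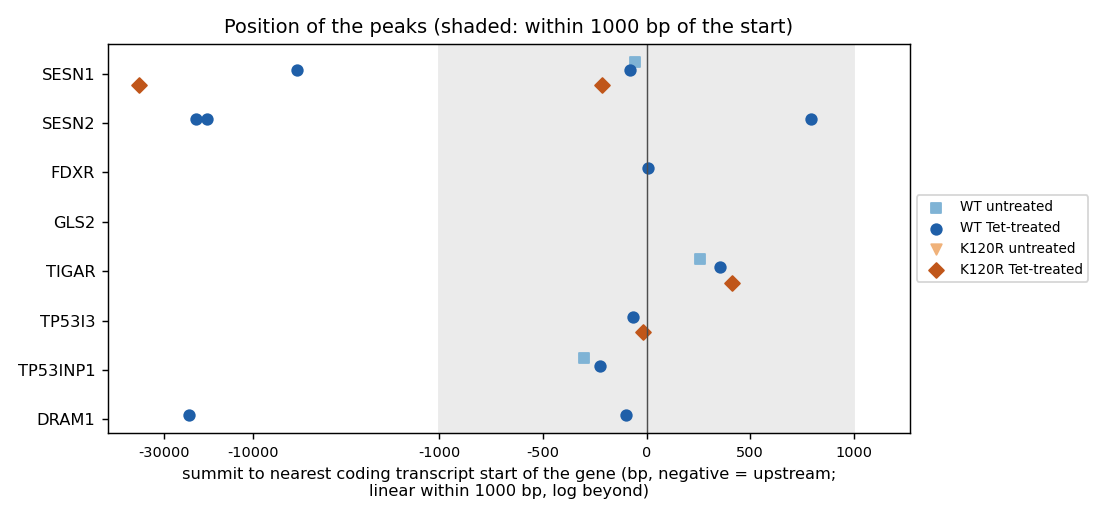
Distance of each summit from the nearest coding transcript start of its gene, in bp, on an axis that is linear within 1 kb and logarithmic beyond, with 1 row per gene and a marker per library. Each of the 7 genes with a WT peak has 1 Tet-treated WT summit in the shaded zone, and the 4 WT peaks outside it, at SESN1, SESN2 and DRAM1, have no K120R marker beside them.

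Fold enrichment and pileup ranked these peaks differently. MACS reports the pileup plus 1 divided by the local background plus 1, so the background at each summit can be recovered. It was 10.0 fragments at TIGAR, 8.16 at TP53INP1, 6.29 at TP53I3 and 6.00 at the main peak of SESN1, compared with a median of 3.00 over all WT peaks of Tet-treated cells. At the distal peaks of SESN2 it was 2.50 and 2.55, but at that of DRAM1 it was 6.00, as high as at the main peak of SESN1. The median was 4.08 for the 256 WT peaks near a start and 3.00 for the 4070 others. By pileup, SESN1, TP53INP1 and TIGAR exceeded 93.0, 92.0 and 89.3% of the list, while by fold enrichment they exceeded 84.9, 73.3 and 56.8%. In the K120R list the background was 3.00 at TIGAR, 1.77 at TP53I3 and 1.56 at the main peak of SESN1, against a median of 1.16. As a group, the 11 WT peaks were of ordinary strength, with a median fold enrichment of 7.89 against 7.64 for the list and a median pileup of 34.9 against 32.0.

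**Figure D3:**
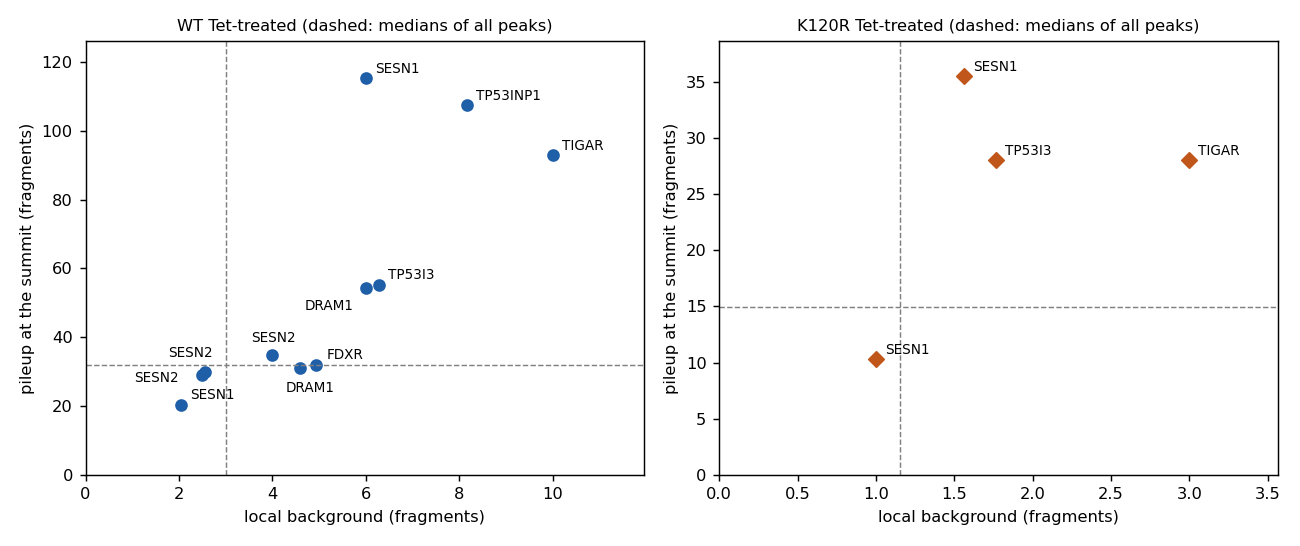
Pileup at the summit against local background, both in fragments, for the peaks of Tet-treated cells with WT p53 (left) and K120R p53 (right), with 1 labelled point per peak and dashed lines at the medians of all peaks in the list. TIGAR combines a pileup of 93.0 with the largest background, 10.0, and the 3 K120R peaks that overlap a WT peak lie above both medians.

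Of the 11 WT peaks of Tet-treated cells, 3 overlapped a K120R peak of Tet-treated cells by at least 1 bp (27.3%, 6.02 to 61.0%), compared with 25.2% of the whole list. Counted by gene, 3 of the 7 genes with a WT peak also had a K120R peak, and 34.3% of all protein-coding genes with a WT peak did. Conversely, 3 of the 4 K120R peaks overlapped a WT peak (75%, 19.4 to 99.4%), against 56.8% of the K120R list. The share of WT peaks was close to its background, and the other counts are too small to tell. A peak of untreated WT cells was present at 3 of 11 (27.3%, 6.02 to 61.0%), against 9.27% of the list, or at 3 of 7 genes, against 11.9%. The 3 peaks of untreated WT cells all overlapped a peak of Tet-treated WT cells, as did 84.8% of that list. SESN1 and TIGAR had all 3 peaks, TP53I3 lacked the untreated one and TP53INP1 lacked the K120R one, and the 7 other WT peaks overlapped no peak of another list.

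Across the whole list, the share of WT peaks with a K120R peak rose with fold enrichment and was 11, 14.4, 25 and 50.9% in its successive quartiles. Of the peaks at the 8 genes, 4 were in the second quartile (0 with a K120R peak), 6 in the third (2 with one) and 1, SESN1, in the highest. Grouped by the best element with at most 3 mismatches, 59.1% of WT peaks with 0 G/C had a K120R peak, and this share was 38.7% with 1, 19.4% with 2, 8.11% with 3 and 5.52% with 4. Of the 5 member peaks with such an element, the SESN1 peak with 0 G/C had a K120R peak, and the 4 with 2 or 3 G/C, at SESN2, FDXR and DRAM1, had none. The grouping is by the element under the WT summit, and at SESN1 the best element within 100 bp of the K120R summit was another one, with 6 mismatches and 4 G/C. The other 6 member peaks fell outside this grouping, with no element of at most 3 mismatches, and 2 of them, at TIGAR and TP53I3, had a K120R peak, as did 21.2% of all such WT peaks. At TIGAR the spaced element had 0 G/C, whereas the listed RE and the best element without a spacer had 3 G/C each. With a spacer, the best element at the SESN2 peak 17.5 kb upstream changed as well, from 3 to 1 G/C, and this peak had no K120R peak. With 5 member peaks, no share by G/C was computed for the 8 genes.

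**Figure D4:**
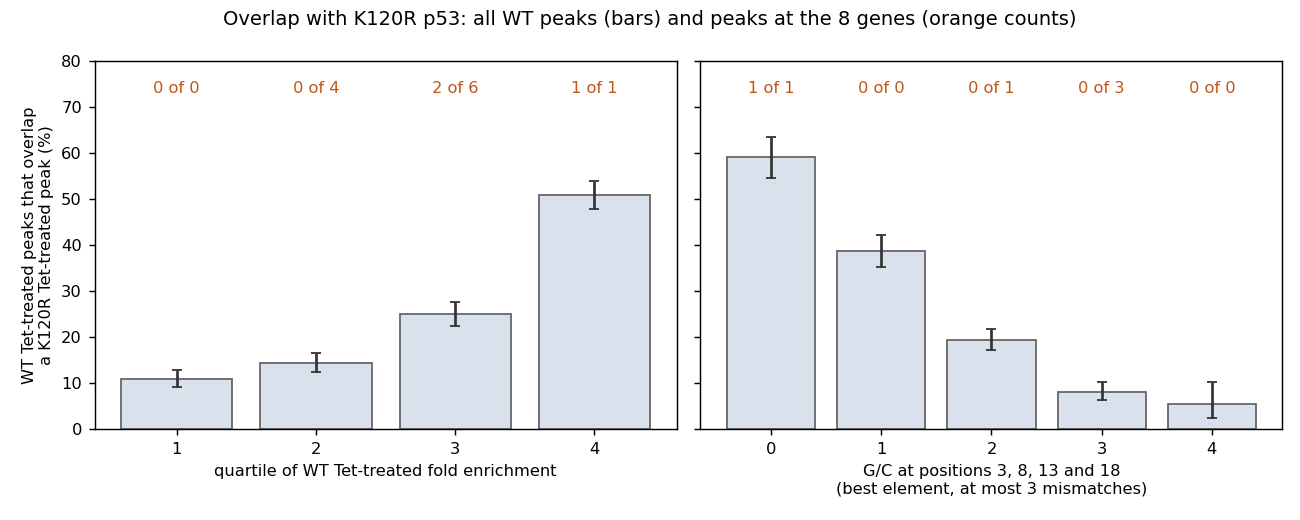
Share of all WT peaks of Tet-treated cells that overlap a K120R peak, in percent, by quartile of WT fold enrichment (left) and by the number of G/C at positions 3, 8, 13 and 18 of the best element (right), with bars for shares, error bars for exact 95% intervals and orange counts for the peaks at the 8 genes. The share is 50.9% in the highest quartile and 59.1% with 0 G/C, and the counts at the 8 genes are 1 of 1 in each of these.

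An element with at most 3 mismatches lay within 100 bp of the summit in 5 of 11 peaks (45.5%, 16.7 to 76.6%), compared with 80.9% of all WT peaks and 5.28% of windows 3 kb away. With a spacer of 0 to 13 bp, 8 of the 11 had one, against 91.1% of WT peaks and 37.5% of the distant windows. Read from the genome instead, the windows of the 8 genes held 18 elements with at most 2 mismatches and no spacer. Of these, 7 were at DRAM1 and none at TIGAR. WT peaks of Tet-treated cells covered 2 of the 18, those upstream of SESN2 and DRAM1, and 3.12% of all 82302 such elements in the genome. In the case of SESN1, neither of its 2 elements of this kind lay in a peak, and 1 of them, 22.6 kb upstream of the gene, had 1 mismatch and none in the cores. A match is a description of the reference sequence, and no reading of which element p53 used was possible from peaks of this width.

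Further genes of the same processes were taken from lists of 80 genes in all. The lists were written from genes that have been linked to p53, with earlier results of these data known. Shares among the list genes therefore describe this choice as well as the libraries, and say nothing of metabolic, redox or autophagy genes in general. WT p53 had a peak after Tet treatment at 27 of the 80 genes (33.8%, background 19.1%) and K120R p53 at 22 (27.5%, background 9.46%). In untreated cells WT p53 had a peak at 8 (10%, background 2.59%) and K120R p53 at 0 (background 0.0347%). Among genes of AMPK and mTOR control, WT p53 had a peak at 6 of 11 and K120R p53 at 3, and DDIT4 and STK11 had a peak with both forms and also in untreated WT cells. Genes of glucose, amino acid, lipid and mitochondrial metabolism had a WT peak in 12 of 26 cases and a K120R peak in 12. Redox genes had a WT peak in 3 of 16 cases (CYGB, NFE2L2 and SOD1) and a K120R peak in 2. Autophagy and lysosome genes had a WT peak in 5 of 21 cases and a K120R peak in 4. The paralogs SESN3, TP53INP2 and DRAM2 had no peak in any library, and of the ferredoxin genes FDX1 had none and FDX2 had a peak with both forms of p53 after Tet treatment, whose nearest transcript start was that of ICAM4. In all, 17 of the 80 genes had a peak with both forms after Tet treatment, 10 with WT p53 alone and 5 with K120R p53 alone. The 17 were out of 27 genes with a WT peak, against 34.3% of all protein-coding genes with a WT peak. At 15 of them a K120R peak overlapped a WT peak, while at CYGB and PRODH the peaks of both forms lay at different sites.

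**Figure D5:**
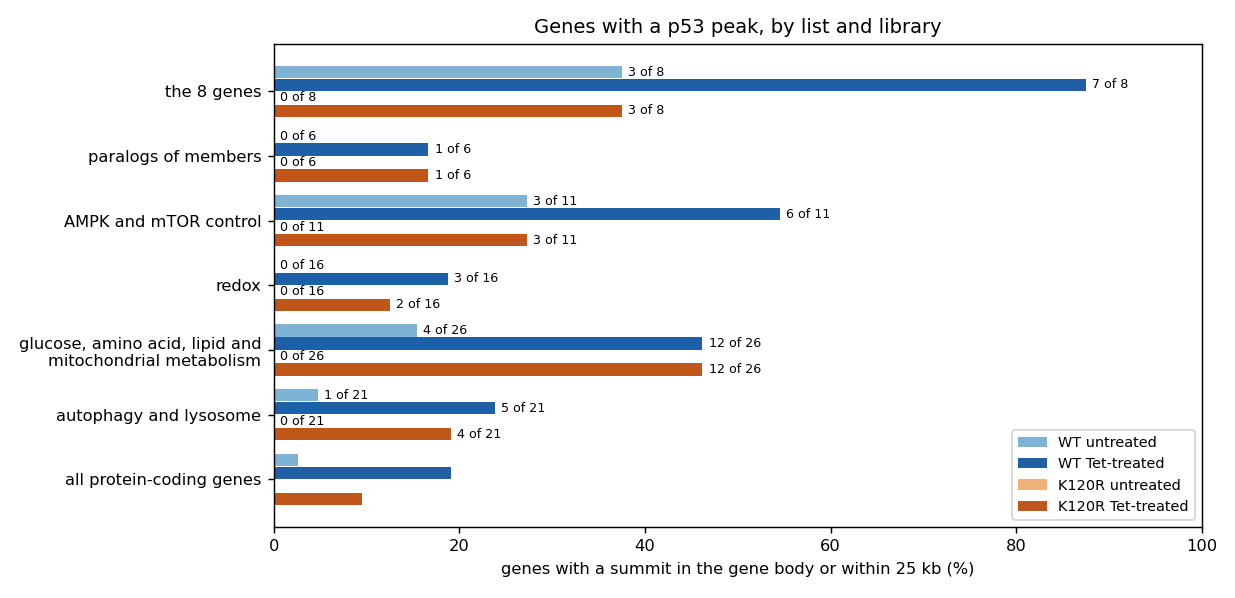
Percentage of genes with a summit in the gene body or within 25 kb, by gene list and library, with the counts beside the bars and all protein-coding genes at the bottom. The 8 genes have the longest WT Tet-treated bar (7 of 8), and the metabolism list has equal bars for WT and K120R p53 after Tet treatment (12 of 26 each).

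The list genes with the largest WT fold enrichment after Tet treatment exceeded the 8 genes. RRM2B, a subunit of ribonucleotide reductase, had fold enrichments of 62.2 with WT p53 and 10.3 with K120R p53 after Tet treatment and 21.5 with WT p53 in untreated cells. ALOX5, a lipoxygenase, had 42.6 with WT p53 and 24.1 with K120R p53, 64.4 kb inside the gene, and no peak in untreated cells. At ACAD11, an acyl-CoA dehydrogenase, fold enrichment was 32.5 with WT p53 and 12.6 with K120R p53 after Tet treatment. ULK2, a kinase that starts autophagy, had 28.1 with WT p53, with the start of ALDH3A1 nearest. A K120R peak and an untreated WT peak (9.78) overlapped this site, but the strongest K120R peak at ULK2 (11) was a different one, on a run of 103 bp of alternating purines and pyrimidines.

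Of the 5 largest K120R values, ALOX5 came first and ATG4A, a protease that processes ATG8 proteins, next, with 20.1 (WT 27.4). TFEB, a transcription factor for lysosomal genes, had 16.1 with K120R p53 and no WT peak, and ACAD11 and CES2 (11.1; WT 27.2) followed. The K120R summit at TFEB lay on a run of 115 bp of alternating purines and pyrimidines. The other genes with a K120R peak and no WT peak were WIPI1 (7.89, run of 18 bp), MLYCD (6.94, strongest of 5 peaks, run of 31 bp), SLC2A1 (5.32, run of 5 bp) and LPIN1 (4.38, run of 6 bp).

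By the percentile of the strongest peak in each of the 4 lists, the gene most like each member shared the member's own peak for 6 of the 7 genes with a WT peak, as the windows of neighbouring genes overlap. The exception was SESN1, which was most like MYBL1 (mean absolute difference 3.56 percentile points over 4 lists). When genes that share a peak with the member were left out, a choice made after the values were seen, TIGAR was most like SRD5A1 (2.31), TP53I3 most like CYTH1 (0.910) and TP53INP1 most like WDR20 (0.549). SESN2, FDXR and DRAM1 had peaks in 1 list, where close matches are easily found, and were most like SPPL2A (0.0173), ALDH1L1 (0.00578) and RGS8 (0.0173), of which ALDH1L1 and RGS8 were each tied with another gene.

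Peak assignment by distance does not show which gene a peak controls, and the peaks of SESN2 in ATP5IF1, of TP53INP1 in NDUFAF6, of TP53I3 in FAM228B and of TIGAR also lie in other genes. The values of single peaks come from 1 library each and have no replicate check.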

How the data were processed

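The authors sequenced 75-bp reads, aligned them to GRCh37 with BWA, kept uniquely aligned reads and ran MACS2 2.1.1.20160309 on every library with its input as control (q-value cutoff 0.05, 1 tag kept per position, larger data set scaled to the smaller). The deposited pileup is a signal height, the number of fragments over the summit. Fold enrichment, also deposited, divides that height by the local background and is thus a ratio. The authors deposited p-values and q-values on the -log10 scale. Fragment lengths used in the peak calls were 170 bp (WT Tet-treated), 68 bp (K120R Tet-treated) and 64 bp (untreated libraries), so values were compared within a list and lists by presence of a peak. The lengths of 68 and 64 bp are below the read length of 75 bp. The 3 deposited forms of each list held the same peaks. Local background was computed as (pileup + 1)/(fold enrichment) - 1, and for 97.4% of the 4252 checked peaks of Tet-treated WT cells and 100% in the other lists it returned the deposited -log10 p to within 0.01. The strongest peaks were left out of this check, as their p-values are too small to compute.

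Genes came from GENCODE release 44 on GRCh37. Summits in the gene body or within 25 kb were assigned to a gene, and a summit could be assigned to several genes. Elements were searched with their centre within 100 bp of a summit, taking the fewest mismatches, then the fewest core mismatches, then the nearest. The sheet of REs was read for sequences and positions of the 8 genes, and 3 of its 1356 read entries belonged to them. Named genes were the 8 genes with every peak, their listed REs, the 5 list genes with the largest fold enrichment with WT and with K120R p53 after Tet treatment, every list gene with a K120R peak and no WT peak, the paralogs SESN3, TP53INP2 and DRAM2, and the gene most like each member; other genes were named after their values were seen. Some genes that these rules take are not reported here. Positions relative to transcript starts, base composition, local background, repeats, alternating runs, elements across the genome, classes of window length, fold enrichment, G/C and spacer, and the overlap within them were also added after the values were seen. The members, lists and rules were chosen with earlier results of these data known. The search was tested on simulated sequence and recovered 100% of 400 planted elements. These had at most 2 mismatches, none in the cores, and no spacer. Recovery of elements with more mismatches, with core mismatches or with a spacer was not tested. Python 3.11.15 was used with numpy 2.4.6, scipy 1.17.1, pysam 0.24.0 and matplotlib 3.10.9.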

Additional observations from a re-analysis of the deposited data

How the results depend on the processing

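Of 85 alternative values of the main results, 78 stayed within 1.5 times the main count or within the interval of the main share, and 7 did not. The 78 include counts of 0 in untreated K120R cells, which a stricter cutoff or a narrower window could not change. A minimum -log10 q of 10 left 1 peak at 1 of the 8 genes in untreated WT cells (SESN1), 3 list genes with a peak in that library and 9 list genes with a K120R peak after Tet treatment, as fewer peaks pass. At this cutoff, 1.20% of all protein-coding genes had a peak in untreated WT cells and 3.52% a K120R peak after Tet treatment. A window of 10 kb left 5 list genes with a peak in untreated WT cells, against 1.81% of all protein-coding genes. With a spacer of 0 to 13 bp, 8 of the 11 WT peaks had an element with at most 3 mismatches, and with a limit of 2 mismatches, chosen after the values were seen, 2 had one. The shares of WT peaks with a K120R peak or an untreated WT peak stayed in their wide intervals, at 27.3 to 37.5% and 9.09 to 37.5%. The weak peaks of TIGAR and TP53INP1 in untreated cells were absent at a minimum -log10 q of 10, and that of TP53INP1 already at 5. Counting summits within 2 kb of a transcript start, also added later, left 7 of 11. Over the whole WT list of Tet-treated cells, 9.41% of summits lay so close. For single peaks, 3 of 33 alternative mismatch counts moved by more than 1.5 times, at SESN2 and TIGAR. No paired analysis was possible because each group had 1 library. The K120R list was called with a shorter fragment length than the WT list of Tet-treated cells, and the peaks were not called again at 1 length.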
